A study of Mus musculus with 8 samples.

Results

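Actin filaments grow from and dissolve into a pool of monomers, and the transcripts described here encode the cytoplasmic actins themselves and the proteins that hold, feed, cut or spare those filaments. The 10 genes were Actb and Actg1 (β- and γ-actin), Pfn1 (profilin 1), Tmsb4x (thymosin β4), Cfl1, Cfl2 and Dstn (the ADF/cofilin family), Limk1 and Limk2 (LIM kinases) and Gsn (gelsolin). They were chosen by name from a listing of 12528 genes, all 10 were found, and all 10 were among the 12494 genes that were tested. RNA came from immortalized mouse embryonic fibroblasts (MEFs) of WT and Cav1KO littermates, the latter without caveolin-1, the main protein of the membrane pits called caveolae. The MEFs had been seeded at low confluence for 24 h on fibronectin-coated polyacrylamide hydrogels of about 55 kPa (stiff) or 0.2 kPa (soft). Each genotype on each substrate made a group, named below as in WT stiff or Cav1KO soft, so that there were 4 groups with 2 libraries each. The number of lines behind each genotype was not given in the sources used here, so a difference between genotypes cannot be told apart from a difference between lines. Nor do the labels say whether the libraries of a group came from separate cultures, so the p-values below measure the spread between these libraries, which may be technical. The comparisons ask how substrate stiffness changes these transcripts in each genotype, whether that change differs between genotypes, and how the genotypes differ on each substrate.

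Profilin binds actin monomers and delivers them to growing filament ends, whereas β-thymosins hold monomers aside. ADF/cofilins bind and sever older filaments and are switched off when LIM kinases phosphorylate them, and gelsolin severs filaments and caps their ends in the presence of calcium. In fibroblasts the balance of monomer and filament shapes stress fibres, and the free monomer in turn holds back the MRTF cofactors of the transcription factor SRF, which drives many genes of the actin cytoskeleton.

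The libraries held 17089836 to 19944952 reads on the listed genes, and the values are TMM-normalized CPM, that is reads scaled to a common library size by the trimmed mean of M-values. Cav1 was at 0.411 CPM or less in every Cav1KO library and at 949.8 CPM or more in every WT library. Of 10 fibroblast markers, 8 were listed, and their summed level was 8605 to 8869 CPM on stiff and 10633 to 10882 CPM on soft gels in WT cells, and 4241 to 5369 CPM and 12830 to 12876 CPM in Cav1KO cells. The fibroblast markers Thy1 and Lum were not listed. No epithelial (0 of 8) or endothelial (0 of 6) marker was listed, and of 8 skeletal muscle markers 1 was, Mylpf, at 1.24 CPM or less. Of 8 macrophage markers, Cd68 and Cd14 were listed, summing to 24.9 to 40.4 CPM in WT and 92.8 to 103.6 CPM in Cav1KO libraries, and their part in the genotype differences below was not tested. limma was run on log2(CPM + 1) for each change, a scale on which changes of weakly expressed genes come out too small, and all p-values given below are adjusted by the Benjamini-Hochberg method over all genes tested. In such bulk RNA, fewer cells of a kind and less RNA per cell cannot be told apart.

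**Figure D1:**
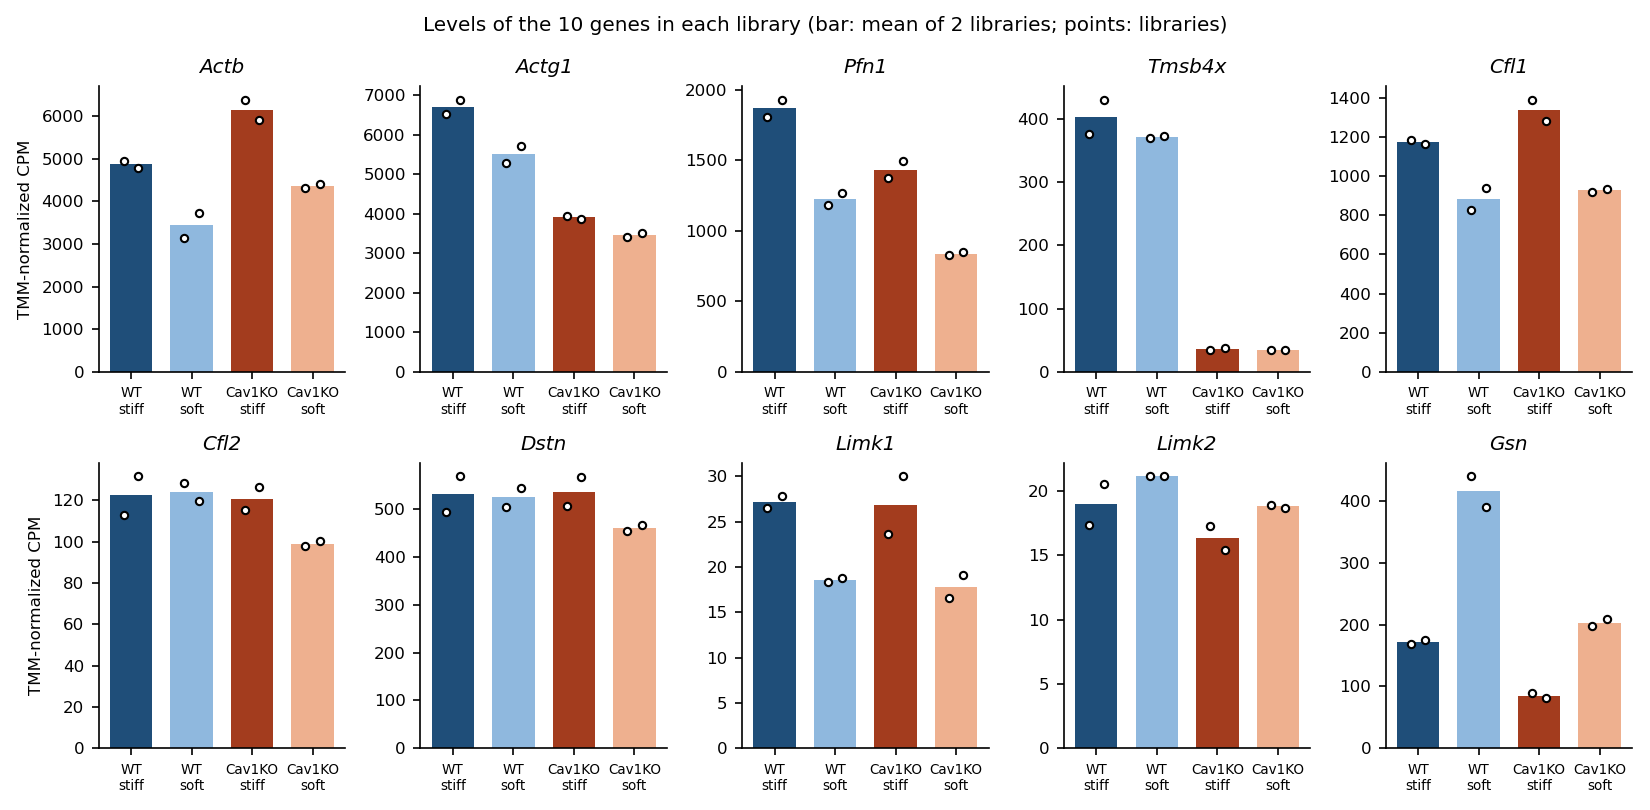
TMM-normalized CPM (y axis, from 0 in each panel) of the 10 genes in the 4 groups (x axis). Bars are means of 2 libraries and points the libraries. Gsn is highest in WT soft cells, Tmsb4x is low in both Cav1KO groups, and Actb and Actg1 stand in opposite orders between the genotypes.

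Stiff substrate raised Actb, Actg1, Pfn1, Cfl1 and Limk1 in WT cells and lowered Gsn, so that 6 of the 10 genes were called, 5 higher and 1 lower. Over all genes tested, limma called 48.4% in this comparison (22.1% higher and 26.3% lower). In Cav1KO cells 5 genes were higher (Actb, Pfn1, Cfl1, Limk1 and Cfl2) and 1 was lower (Gsn), beside 56.1% of all genes (27.9% higher and 28.2% lower). The share of the 10 genes that was called was therefore near the background, and its direction was mostly upward. The median log2 fold change of the 10 genes was 0.20 in WT and 0.25 in Cav1KO cells, beside -0.02 over all genes in each. Fewer of the 10 genes were called in WT cells without the first WT soft library, and in Cav1KO cells without the first Cav1KO soft library. Fewer of all genes were called in these runs as well, so the drop is not read as particular to the 10 genes.

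Between the genotypes, Tmsb4x was the most altered of the 10, with Gsn, Actg1 and Pfn1 also lower and Actb higher in Cav1KO cells. On the stiff substrate 1 of the 10 genes was called higher in Cav1KO cells and 4 lower, beside 51.7% of all genes (25.0% higher and 26.6% lower). On the soft substrate 1 was called higher and 5 lower, the additional gene being Cfl2, beside 54.0% of all genes (24.1% higher and 29.9% lower). The median log2 fold change of the 10 genes was -0.11 on stiff and -0.26 on soft gels, beside -0.03 over all genes in each. The stiff and soft comparisons of genotypes share no library with each other, but each shares its libraries with the stiffness comparisons. All came from 1 fit with a shared estimate of the spread, so their p-values are not independent.

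**Figure D2:**
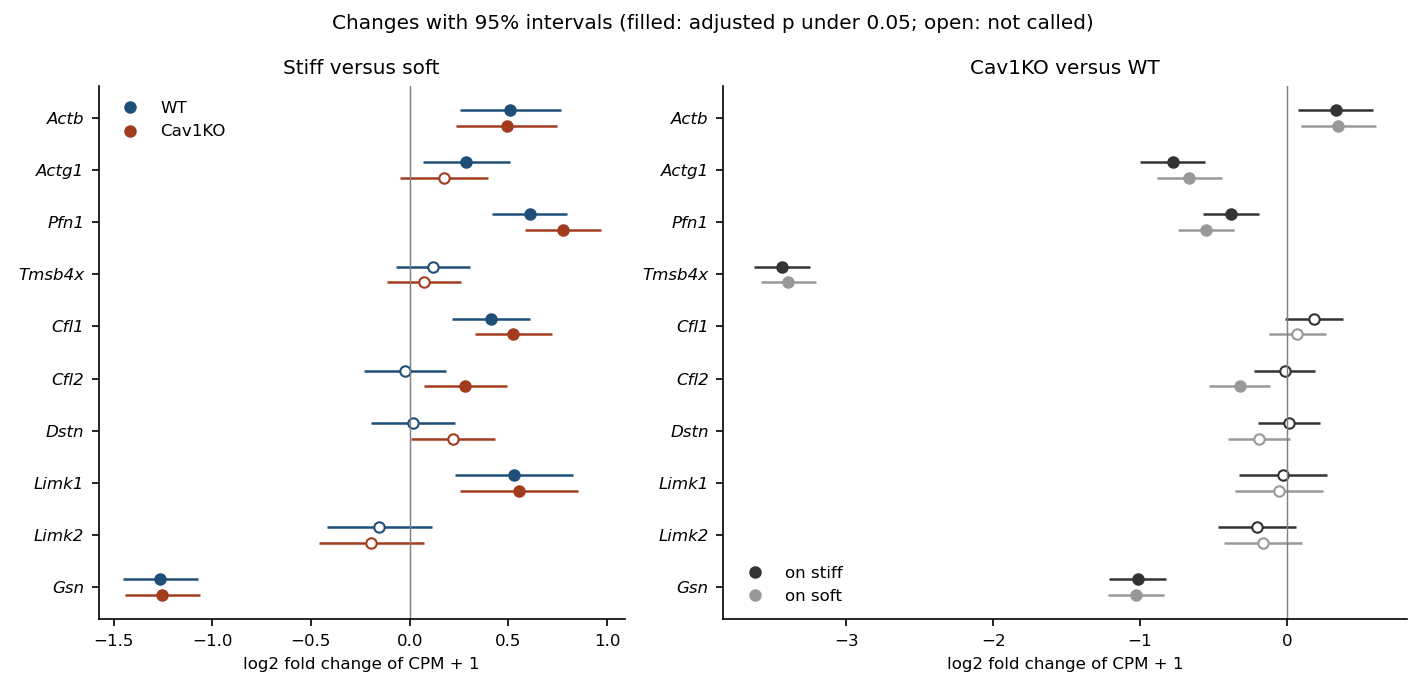
Log2 fold change of CPM + 1 (x axis) for the 10 genes (y axis) with 95% intervals, for stiff versus soft in each genotype (left) and Cav1KO versus WT on each substrate (right). Filled points passed an adjusted p of 0.05. The intervals of WT and Cav1KO cells overlap for each gene on the left, and on the right Tmsb4x stands apart near -3.4.

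None of the 10 stiffness effects differed between the genotypes by limma's interaction test, which called 10.5% of all genes (4.47% toward a higher value in WT cells). The smallest adjusted p among the 10 was 0.134, for Cfl2, which was also the single gene (1 of 10) with an unadjusted p under 0.05. edgeR and DESeq2 on the recovered reads also called 0 of the 10. The estimated differences (WT effect minus Cav1KO effect, log2) were at most 0.31 in absolute size, and their 95% intervals lay between -0.60 and 0.42. Differences within these intervals could not be resolved with 2 libraries per group. After quantile normalization 1 gene was called, Actg1, with a difference of 0.33 (adjusted p = 0.0432 by limma). That method sets each value by its rank within its library. Actg1 was at rank 6 by mean CPM, where only steps between ranks remain, so the size and p-value of this call depend on those steps.

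β-actin mRNA was among the most abundant transcripts (rank 8 by mean CPM of the 12528 genes), with 51988 to 108442 reads per library. Actb (ENSMUSG00000029580, chromosome 5 from 142903115 to 142906754 of GRCm38, minus strand) was at 4949 and 4787 CPM on stiff and 3141 and 3720 CPM on soft gels in WT cells. In Cav1KO cells it was at 6382 and 5894 CPM on stiff and 4319 and 4400 CPM on soft gels. The 4 groups did not overlap, and their order from high to low was Cav1KO stiff, WT stiff, Cav1KO soft, WT soft. The stiff substrate raised Actb 1.42-fold in WT cells (log2 fold change 0.51, standard error (SE) 0.11, adjusted p = 0.00585 by limma) and 1.41-fold in Cav1KO cells (0.49, adjusted p = 0.00550 by limma). Cav1KO exceeded WT cells by 0.33 on the log2 scale on stiff gels (adjusted p = 0.0346 by limma) and by 0.35 on soft gels (adjusted p = 0.0268 by limma). The genotype difference on stiff gels was the less certain. It was 0.28 to 0.39 as each library was left out, and its call was lost in several of these runs. Without either Cav1KO soft library its size stayed at 0.33, and only the shared estimate of the spread changed. Its adjusted p by limma was 0.105 when the fit held the 2 stiff groups alone, and 0.199 after quantile normalization. For a gene as abundant as Actb, quantile normalization leaves only steps between ranks, and its values there depend on those steps. On soft gels the call was lost without the first WT soft library (adjusted p = 0.172 by limma) or either Cav1KO soft library (0.117 and 0.139). The stiffness calls were lost, narrowly, without the first WT soft library in WT cells (adjusted p = 0.0507 by limma) and without the first Cav1KO soft library in Cav1KO cells (adjusted p = 0.0501 by limma), and in Cav1KO cells also after quantile normalization (0.194).

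γ-actin mRNA exceeded β-actin mRNA in WT cells and fell below it in Cav1KO cells. Actg1 (ENSMUSG00000062825, chromosome 11 from 120345690 to 120348542, minus strand) was at 6533 and 6892 CPM on stiff and 5299 and 5714 CPM on soft gels in WT cells. In Cav1KO libraries it was at 3946 and 3881 CPM on stiff and 3421 and 3517 CPM on soft gels. Every WT library exceeded every Cav1KO library, and the groups of each genotype did not overlap. Cav1KO cells had less Actg1 than WT cells on the stiff substrate (log2 fold change -0.78, SE 0.10, adjusted p = 2.33e-04 by limma) and on the soft substrate (-0.67, adjusted p = 5.14e-04 by limma), and leaving out any 1 library kept both calls. After quantile normalization the difference on soft gels was -0.41 and was still called. The rise with stiffness in WT cells was small (log2 fold change 0.29, adjusted p = 0.0377 by limma), and its call was not stable. It was 0.23 to 0.34 as each library was left out, and the call was lost in most of these runs. Without either Cav1KO soft library its size stayed at 0.29, and only the shared estimate of the spread changed. With the WT groups fitted alone its adjusted p was 0.208 by limma. In Cav1KO cells the change was 0.17 (adjusted p = 0.157 by limma). Actg1 is reported as uncertain, because 35.7% of the 60-nt windows of its transcripts also occur in other genes, almost all of them processed pseudogenes that were not listed; 0.101% occur in a listed gene. For Actb this share was 4.86%.

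Set against each other per kb of transcript, the 2 actins changed places between genotypes. Actb made up 43.5% and 41.4% of the Actb plus Actg1 signal per kb in WT stiff libraries and 37.6% and 39.8% in WT soft libraries. In Cav1KO libraries it made up 62.2% and 60.7% on stiff and 56.2% and 56.0% on soft gels. Each Cav1KO library was above each WT library, and within each genotype the stiff libraries were above the soft ones. The sum of the 2 actins varied less with genotype than its make-up, with 5925 and 6024 CPM per kb on stiff and 4351 and 4864 on soft gels in WT cells, and 5345 and 5058 against 4002 and 4094 in Cav1KO cells. The 4 groups of this sum did not overlap and followed the order WT stiff, Cav1KO stiff, WT soft, Cav1KO soft. Together the actins took 0.817% to 1.15% of all signal. With 2 libraries against 2, an exact permutation test could not reach the threshold, so these shares are given as descriptions.

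**Figure D3:**
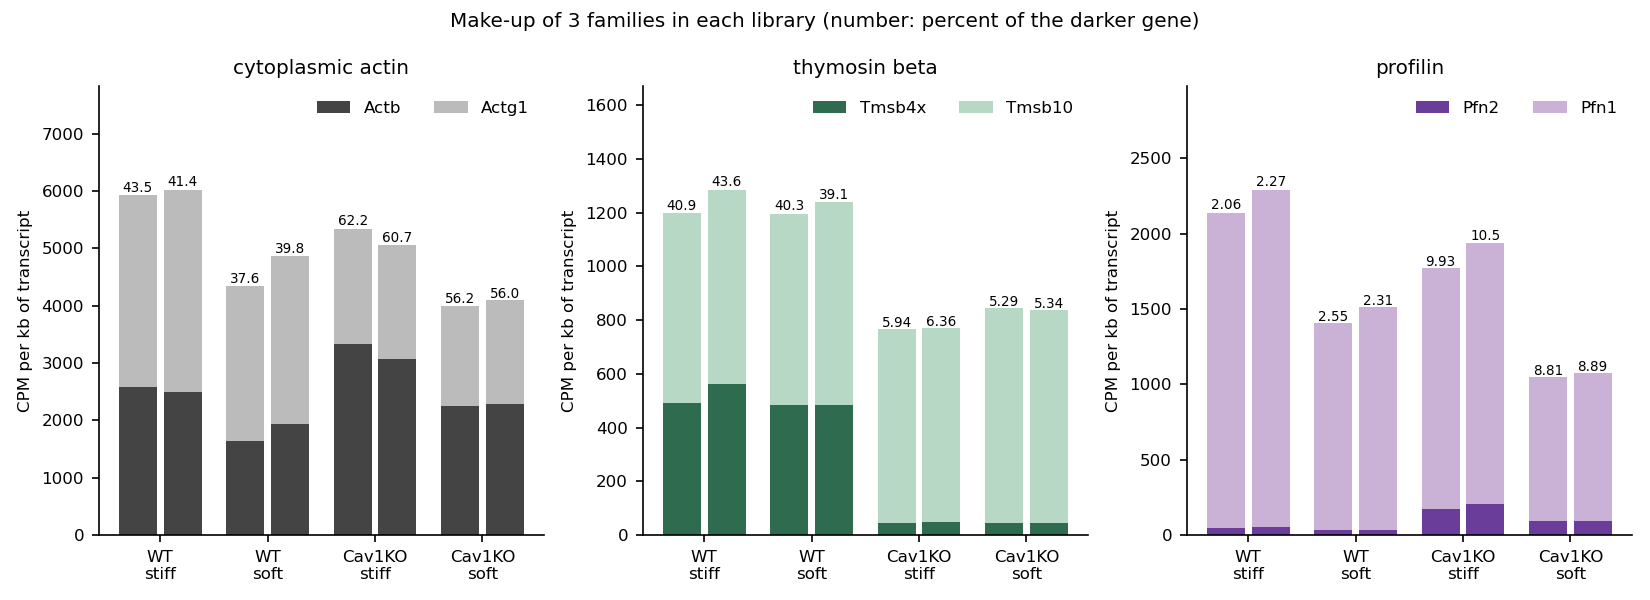
CPM per kb of transcript (y axis) in each of the 8 libraries (x axis, paired by group) for the cytoplasmic actins, the β-thymosins Tmsb4x and Tmsb10, and profilins 1 and 2. The number above a bar is the percent taken by the darker gene, which rises for Actb and Pfn2 and falls for Tmsb4x in Cav1KO cells.

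Among the monomer binders, profilin 1 mRNA rose on the stiff substrate in both genotypes and was lower in Cav1KO cells on both substrates. Pfn1 (ENSMUSG00000018293, chromosome 11 from 70651850 to 70654644, minus strand) was at 1805 and 1930 CPM on stiff and 1179 and 1270 CPM on soft gels in WT cells. The Cav1KO libraries had 1373 and 1493 CPM on stiff and 824.8 and 846.3 CPM on soft gels. The 4 groups did not overlap. The stiff substrate raised Pfn1 1.52-fold in WT cells (log2 fold change 0.61, SE 0.08, adjusted p = 5.63e-04 by limma) and 1.71-fold in Cav1KO cells (0.78, adjusted p = 1.14e-04 by limma). Cav1KO cells were lower by a log2 fold change of -0.38 on stiff (adjusted p = 0.00512 by limma) and -0.55 on soft gels (adjusted p = 6.65e-04 by limma). All 4 calls stood as each library was left out in turn. No 60-nt window of Pfn1 was shared with another gene.

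Profilin 2, encoded by Pfn2 (ENSMUSG00000027805, chromosome 3), ran the other way between genotypes. It was at 103.5 and 121.8 CPM on stiff and 83.9 and 81.9 CPM on soft gels in WT cells, and at 411.7 and 476.8 CPM on stiff and 216.6 and 224.5 CPM on soft gels in Cav1KO cells. Every Cav1KO library was above every WT library. Pfn2 was higher in Cav1KO cells by 1.97 on the log2 scale on stiff (adjusted p = 1.13e-06 by limma) and 1.40 on soft gels (adjusted p = 7.93e-06 by limma), and its stiffness effect was larger in Cav1KO than in WT cells (interaction -0.57, adjusted p = 0.0418 by limma). This last call was lost without any of 6 of the 8 libraries (adjusted p of 0.0132 to 0.158 as each was left out), without the trend (0.0756) and with edgeR (0.0501). Its share of the 2 profilins per kb was 2.06% to 2.55% in WT and 8.81% to 10.5% in Cav1KO libraries, so Pfn1 supplied most of the profilin signal in each library.

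The upstream sequences of Actg1 and Pfn1 are shown because of the 9 genes that could be searched they were the ones with a match to an element of SRF or of the TEAD factors, both tied to the actin cytoskeleton. They were read from RefSeq's promoter entries on GRCm38.p6, in which 9 of the 10 genes had 14 entries of 250 bases before to 50 after a start site. Actb was the gene without an entry, so its promoter was not searched. Capitals mark a CArG box, the element bound by SRF, in Actg1, and the TEAD element GGAATG, bound by the partners of the cofactor YAP, in Pfn1. The stretches are 200 bases of Actg1 (chr11:120348546-120348745, minus strand, from 250 to 51 bases before the start) and 220 bases of Pfn1 (chr11:70654681-70654900, minus strand, from 250 to 31 bases before the start), written 5′ to 3′.
Actg1: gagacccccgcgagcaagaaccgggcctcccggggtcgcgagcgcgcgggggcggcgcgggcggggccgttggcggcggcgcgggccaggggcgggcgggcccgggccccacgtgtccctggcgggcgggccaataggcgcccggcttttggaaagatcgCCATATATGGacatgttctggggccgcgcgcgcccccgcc
Pfn1: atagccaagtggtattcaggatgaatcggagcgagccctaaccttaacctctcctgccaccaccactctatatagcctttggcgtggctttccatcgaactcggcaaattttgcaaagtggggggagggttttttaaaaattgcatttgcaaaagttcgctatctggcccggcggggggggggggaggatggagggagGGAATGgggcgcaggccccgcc
The CArG box began 90 bases before the Actg1 start, and 1.63% of 32851 RefSeq promoters of this length held such a box. The TEAD element began 52 bases before the Pfn1 start, and 14.7% of these promoters held GGAATG or, on the other strand, CATTCC. The CArG box reads alike on both strands, the 2 motifs did not overlap here, and neither was found in the other 12 entries. A match of letters is a description of these windows and not evidence that a factor binds.

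Thymosin β4 mRNA had the largest difference of the 10 between genotypes and no detectable response to stiffness. Tmsb4x (ENSMUSG00000049775, chromosome X from 167207093 to 167209315, minus strand) was at 376.8 and 430.5 CPM on stiff and 370.4 and 372.2 CPM on soft gels in WT cells. Among Cav1KO libraries the level was 34.9 and 37.7 CPM on stiff and 34.3 and 34.4 CPM on soft gels, still at least 593 reads per library. Every WT library was thus far above every Cav1KO library. Cav1KO cells were 10.8-fold lower on stiff gels (log2 fold change -3.44, SE 0.08, adjusted p = 2.60e-08 by limma) and 10.5-fold lower on soft gels (-3.40, adjusted p = 2.28e-08 by limma). Of the 12494 genes tested, 95 on stiff and 112 on soft gels had a lower log2 fold change than Tmsb4x. The stiffness effect was 0.12 in WT cells (95% interval -0.07 to 0.30, adjusted p = 0.270 by limma) and 0.07 in Cav1KO cells (-0.11 to 0.26, adjusted p = 0.473 by limma). No 60-nt window of Tmsb4x was shared with another gene.

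The listed neighbours of Tmsb4x on the X chromosome were examined after its values were seen. Of the 4 genes on each side, Trappc2, Rab9, Tlr7, Prps2 and Msl3 were higher in Cav1KO cells on both substrates, with log2 fold changes of 0.39 to 1.26, and Arhgap6 was lower on both. Ofd1 was called higher on soft gels (1.55) and Tceanc on stiff gels (0.67). Of all genes, limma called 25.0% higher in Cav1KO cells on stiff and 24.1% on soft gels, and 26.6% and 29.9% lower. As each library was left out, Rab9 lost its call on soft gels in 3 of 8 runs, Trappc2 on soft gels in 1 and Arhgap6 on stiff gels in 4. The nearest listed gene, Tlr7, which encodes an RNA sensor of immune cells, was at 3.02 CPM on average in Cav1KO stiff and 0.672 CPM in WT stiff cells. Arhgap6 had group means of 0.257 to 1.38 CPM, so the fitted changes of both genes depend on the pseudocount. The Arhgap6 call on stiff gels was also lost after quantile normalization (adjusted p = 0.0727 by limma), with a pseudocount of 5 (0.0684) and with DESeq2 (0.134).

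Tmsb10, which encodes the related thymosin β10, was at 489.1 and 500.3 CPM on stiff and 492.9 and 520.7 CPM on soft gels in WT cells. In Cav1KO libraries it was at 496.9 and 497.8 CPM on stiff and 552.5 and 547.5 CPM on soft gels. Its Cav1KO to WT change was 0.01 on stiff (adjusted p = 0.933 by limma) and 0.12 on soft gels (adjusted p = 0.158 by limma). Tmsb4x took 39.1% to 43.6% of the summed Tmsb4x and Tmsb10 signal per kb in WT libraries and 5.29% to 6.36% in Cav1KO libraries. Tmsb10 is reported as uncertain, since 24.0% of its 60-nt windows occur in other genes, 19.3% in listed ones.

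Relative to cytoplasmic actin, β-thymosin transcripts were scarcer on the stiff substrate and scarcer in Cav1KO cells. Per 100 of Actb plus Actg1, all per kb, there were 20.2 and 21.3 of Tmsb4x plus Tmsb10 on stiff and 27.5 and 25.5 on soft gels in WT cells, and 14.3 and 15.2 against 21.1 and 20.5 in Cav1KO cells. The WT stiff and Cav1KO soft libraries overlapped on this scale, and the other groups did not. The same measure for Pfn1 plus Pfn2 was 36.1 and 38.1 on stiff and 32.3 and 31.1 on soft gels in WT cells, and 33.1 and 38.3 against 26.2 and 26.4 in Cav1KO cells. The stiff groups of both genotypes overlapped, and the Cav1KO soft libraries were lowest. Before division by actin, the summed β-thymosins were at 1199 and 1286 CPM per kb in WT stiff and 1197 and 1239 in WT soft libraries, which overlapped. In Cav1KO cells they were at 766 and 770 on stiff and 845 and 838 on soft gels. Tmsb10 and Actg1, both reported as uncertain, enter the β-thymosin ratio.

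**Figure D4:**
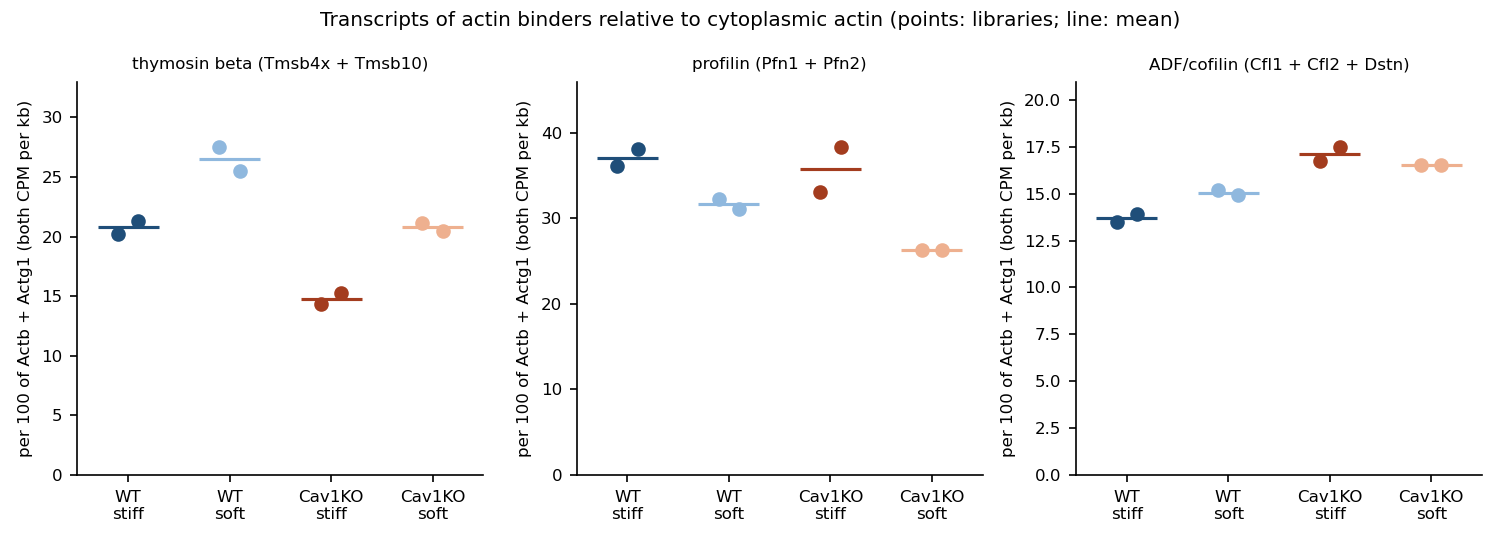
Summed CPM per kb of β-thymosins, profilins and ADF/cofilins per 100 CPM per kb of Actb plus Actg1 (y axes, from 0) in the 4 groups (x axis). Points are libraries and lines the means of 2. β-thymosin is lowest in Cav1KO stiff cells, at 14.3 and 15.2, and each Cav1KO library lies above every WT library for ADF/cofilin.

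Of the ADF/cofilins, Cfl1, the main cofilin of non-muscle cells, rose with stiffness in both genotypes. Cfl1 (ENSMUSG00000056201, chromosome 19 from 5490455 to 5495201, plus strand) was at 1184 and 1165 CPM on stiff and 829.1 and 940.4 CPM on soft gels in WT cells. The Cav1KO libraries had 1392 and 1281 CPM on stiff and 918.4 and 937.0 CPM on soft gels. The stiff libraries were above the soft ones in each genotype, and the soft groups of the genotypes overlapped. The rise was 0.41 on the log2 scale in WT cells (SE 0.09, adjusted p = 0.00468 by limma) and 0.53 in Cav1KO cells (adjusted p = 0.00103 by limma), and leaving out any 1 library kept both calls. The genotypes differed by 0.19 on stiff gels (95% interval -0.01 to 0.38, adjusted p = 0.103 by limma) and 0.07 on soft gels (-0.13 to 0.27, adjusted p = 0.511 by limma). Cfl1 is reported as uncertain, since 16.0% of its 60-nt windows occur in other genes, mainly in a transcript of its neighbour Snx32 and in the pseudogene Gm6180, whose group means in this listing were at most 2.74 CPM.

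Cfl2, the cofilin prominent in muscle, and Dstn, which encodes destrin (ADF), changed less. Cfl2 (ENSMUSG00000062929, chromosome 12 from 54858809 to 54862877, minus strand) was at 113.1 and 131.7 CPM on stiff and 128.6 and 119.7 CPM on soft gels in WT cells, and at 115.3 and 126.3 CPM on stiff and 97.8 and 100.3 CPM on soft gels in Cav1KO cells. The Cav1KO soft group was below the other 3, which overlapped. In Cav1KO cells Cfl2 rose with stiffness by 0.28 (SE 0.09, adjusted p = 0.0279 by limma), and on soft gels it was lower than in WT cells by a log2 fold change of -0.32 (adjusted p = 0.0166 by limma). The first of these calls was lost without the second Cav1KO stiff library (adjusted p = 0.130 by limma), the first (0.132) or the second Cav1KO soft library (0.0914), after quantile normalization (0.181) and without the trend (0.0569). The other was lost without the first WT soft library (0.0974) or the first (0.0940) or second Cav1KO soft library (0.0664). In WT cells the stiffness effect was -0.02 (95% interval -0.23 to 0.19, adjusted p = 0.855 by limma).

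Dstn (ENSMUSG00000015932, chromosome 2 from 143915320 to 143943324, plus strand) was at 495.0 and 569.0 CPM on stiff and 504.9 and 544.2 CPM on soft gels in WT cells, and at 506.3 and 567.2 CPM on stiff and 453.7 and 466.1 CPM on soft gels in Cav1KO cells. As with Cfl2, the Cav1KO soft group was lowest and the other groups overlapped. No change of Dstn passed the threshold, the nearest being the stiffness effect in Cav1KO cells (log2 fold change 0.22, 95% interval 0.01 to 0.43, adjusted p = 0.0716 by limma). That effect was called under median centring (adjusted p = 0.0352 by limma), with a replicate block (0.0302) and with the first Cav1KO stiff library left out (0.0370). It shrank to 0.14 without the second Cav1KO stiff library (adjusted p = 0.310 by limma) and to 0.02 after quantile normalization (0.884). The genotype difference on soft gels was called when those groups were fitted alone (log2 fold change -0.19, adjusted p = 0.0374 by limma) and was -0.05 after quantile normalization (0.586).

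Summed per kb, the 3 genes gave 13.5 and 13.9 per 100 of cytoplasmic actin on stiff and 15.2 and 14.9 on soft gels in WT cells, and 16.7 and 17.5 against 16.5 and 16.5 in Cav1KO cells. Each Cav1KO library was above each WT library, and WT soft libraries were above WT stiff ones. Before division by actin the sums were 800 and 837 CPM per kb on stiff and 660 and 725 on soft gels in WT cells. In Cav1KO cells they were 895 and 884 on stiff and 661 and 676 on soft gels. These sums overlapped between genotypes on soft gels, and stiff libraries were above soft ones in each genotype. Actg1 and Cfl1, both reported as uncertain, enter the ratio to actin. Cfl1 took 53.4% to 66.0% of the ADF/cofilin signal per kb, Dstn 29.6% to 40.0% and Cfl2 4.38% to 6.62% over the 8 libraries. The Cfl1 share was higher in stiff than in soft libraries in both genotypes, at 59.1% to 62.8% against 53.4% to 55.1% in WT and at 61.6% to 66.0% against 58.9% to 59.0% in Cav1KO libraries.

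The LIM kinases, which inactivate cofilin by phosphorylation, were the scarcest of the 10 transcripts. Limk1 (ENSMUSG00000029674, chromosome 5 from 134656039 to 134688598, minus strand) was at 26.5 and 27.9 CPM on stiff and 18.3 and 18.8 CPM on soft gels in WT cells, and at 23.6 and 30.0 CPM on stiff and 16.6 and 19.1 CPM on soft gels in Cav1KO cells. The stiff libraries exceeded the soft libraries in each genotype, and the genotypes overlapped on each substrate. Limk1 rose with stiffness by 0.53 in WT cells (SE 0.13, adjusted p = 0.0102 by limma) and 0.55 in Cav1KO cells (adjusted p = 0.00663 by limma). The WT call was lost without the second WT stiff library (adjusted p = 0.0531 by limma) or the first WT soft library (0.0595), and the Cav1KO call without the first Cav1KO soft library (0.0603). The Cav1KO to WT change was -0.03 on stiff (95% interval -0.33 to 0.27) and -0.05 on soft gels (-0.35 to 0.24).

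Limk2 (ENSMUSG00000020451, chromosome 11 from 3344256 to 3409189, minus strand) was at 17.4 and 20.6 CPM on stiff and 21.1 and 21.2 CPM on soft gels in WT cells, and at 17.3 and 15.4 CPM on stiff and 18.9 and 18.7 CPM on soft gels in Cav1KO cells. Its soft libraries lay above its stiff ones in each genotype, opposite to Limk1, but no change passed the threshold. The stiffness effect was -0.15 in WT cells (95% interval -0.42 to 0.11, adjusted p = 0.303 by limma) and -0.19 in Cav1KO cells (-0.46 to 0.07, adjusted p = 0.187 by limma). Limk1 took 58.8% to 67.3% of the LIM kinase signal per kb in stiff libraries and 47.7% to 51.8% in soft libraries, with no overlap in either genotype.

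Gelsolin mRNA responded to both factors, falling on the stiff substrate and in Cav1KO cells. Gsn (ENSMUSG00000026879, chromosome 2 from 35256380 to 35307892, plus strand) was at 169.1 and 175.5 CPM on stiff and 440.2 and 390.4 CPM on soft gels in WT cells. Among Cav1KO libraries the level was 88.7 and 80.7 CPM on stiff and 197.6 and 208.5 CPM on soft gels. The 4 groups did not overlap, in the order WT soft, Cav1KO soft, WT stiff, Cav1KO stiff. From soft to stiff gels the change was -1.26 on the log2 scale in WT cells (SE 0.08, adjusted p = 4.08e-05 by limma) and -1.25 in Cav1KO cells (adjusted p = 1.75e-05 by limma), and the difference between them was -0.01 (95% interval -0.28 to 0.26). Cav1KO against WT cells gave -1.02 on stiff (adjusted p = 2.07e-05 by limma) and -1.03 on soft gels (adjusted p = 1.88e-05 by limma). All 4 calls stood as each library was left out, with stiffness effects of -1.35 to -1.18 in WT cells. No 60-nt window of Gsn was shared with another gene.

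The genes whose 8-library profile lay closest to those of Actb and Gsn were sought among 6987 genes of at least 20 CPM on average, by the root mean square difference of centred log2(CPM + 1). Closest to Actb were Snrnp70, Rrp7a, Tars, Hnrnpdl and Dlat, at 0.0362 to 0.0612. Snrnp70, a component of the spliceosome, had group means of 203.0 CPM on stiff and 142.8 CPM on soft gels in WT cells, and 254.2 and 188.2 CPM in Cav1KO cells. Cfl1 was the closest of the other 9 genes to Actb (0.114, rank 78), and Actg1 was at rank 5094. Closest to Gsn were Fndc3a, Vldlr, Trib2, Zfp36l1 and Fbln5, at 0.105 to 0.174. Fndc3a had group means of 84.7 CPM on stiff and 212.4 CPM on soft gels in WT cells, and 40.4 and 108.5 CPM in Cav1KO cells. The points compared share the same 8 libraries, and likeness of profile is given as a description.

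Actb is itself a common reference gene for qRT-PCR, and its stiffness effect was set beside those of 16 other such genes. In WT cells, 6 of the 16 were called higher on stiff gels and 2 lower, and 3 had a larger absolute change than Actb. These 8 calls among 16 genes were near the 48.4% of all genes. In Cav1KO cells the calls were 9 higher and 2 lower (68.8% against 56.1% of all genes), and 10 had a larger change than Actb. Of these 16, Cav1KO cells had 3 called higher and 3 lower than WT cells on stiff gels (37.5% against 51.7%), and 4 higher and 8 lower on soft gels (75.0% against 54.0%). Gapdh, a glycolytic enzyme, was at 795.1 and 831.1 CPM on stiff and 684.2 and 724.6 CPM on soft gels in WT cells, and at 529.0 and 480.8 CPM on stiff and 340.5 and 347.5 CPM on soft gels in Cav1KO cells, with a Cav1KO to WT change of -0.69 on stiff (adjusted p = 1.15e-04 by limma) and -1.03 on soft gels (adjusted p = 1.02e-05 by limma). Gapdh is uncertain, with 24.0% of its 60-nt windows shared with other genes. Hprt, an enzyme of purine salvage, rose with stiffness by 0.47 in WT (adjusted p = 0.00840 by limma) and 1.11 in Cav1KO cells (adjusted p = 7.87e-05 by limma), and this difference passed the interaction test (adjusted p = 0.0414 by limma), but not without any of 6 of the 8 libraries (0.0131 to 0.153). The WT rise was lost in 2 of the 8 such runs (up to 0.0580).

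A wider list of 91 actin turnover genes, without the 10, had 67 entries that were tested (66 symbols, Mical3 being listed under 2 identifiers). In WT cells 18 rose and 7 fell on the stiff substrate (median log2 fold change 0.10), which made 37.3% of the list against 48.4% of all genes. In Cav1KO cells 15 rose and 27 fell (median -0.20), or 62.7% against 56.1%. The difference between the stiffness effects had a median of 0.34, beside -0.07 over all genes and -0.02 over the 10 genes, with 5 list genes called higher in WT cells and 2 lower. These calls made 10.4% of the list, near the 10.5% of all genes. This count of 7 was not stable as single libraries were left out. The number of interaction calls over all genes also varied widely in those runs, so the instability is not read as particular to the list. Cav1KO cells had 12 list genes higher and 34 lower on stiff gels (median -0.36), or 17.9% and 50.7% of the list against 25.0% and 26.6% of all genes. On soft gels 21 were higher and 24 lower (median 0.09), or 31.3% and 35.8% against 24.1% and 29.9%. Transcript length moved with the Cav1KO stiffness comparison: its median log2 fold change over all genes was 0.10 in the shortest and -0.18 in the longest tertile of summed exon length (under 3228 nt and over 5819 nt), and that of the difference between the stiffness effects was -0.21 and 0.15. Between the 2 libraries of a group (second minus first) it was 0.11 and -0.14 in Cav1KO stiff and 0.11 and -0.10 in WT stiff cells, so the trend also varied between libraries of 1 group. Between genotypes it was 0.07 and -0.14 on stiff and -0.11 and 0.09 on soft gels. Of the 10 genes, 7 were in the shortest tertile, Cfl2 in the middle and Limk1 and Limk2 in the longest. The part of length in these results was not tested.

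**Figure D5:**
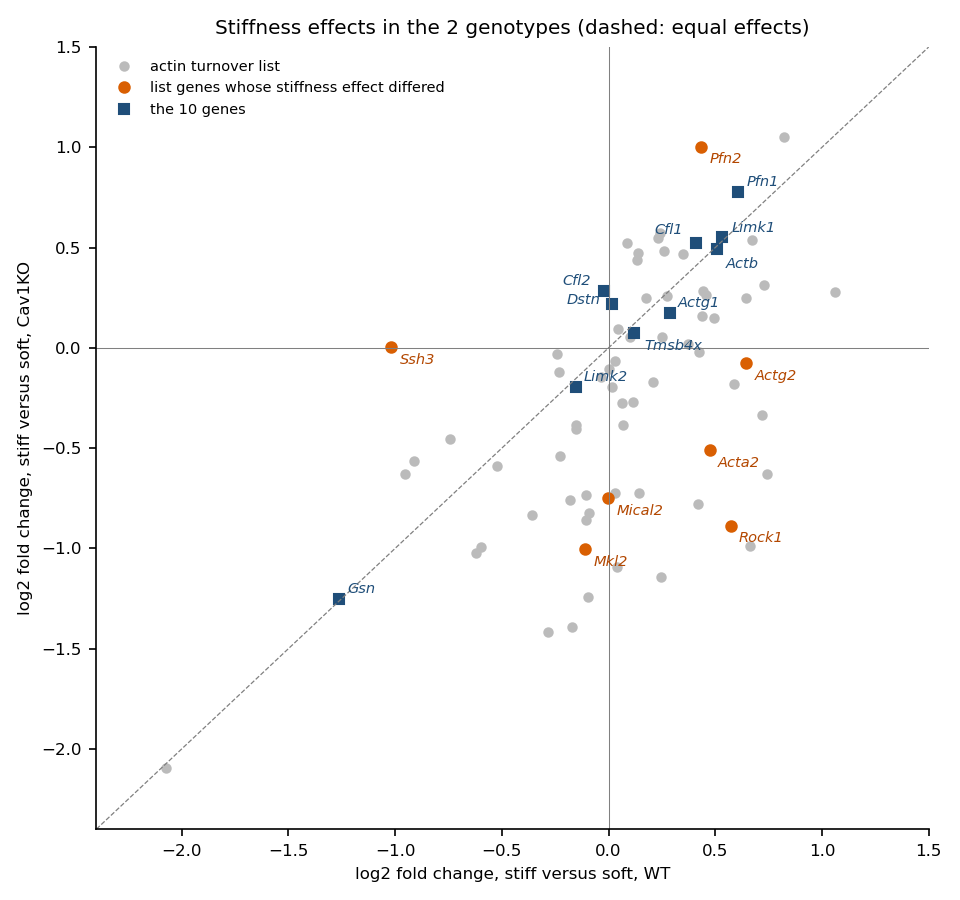
Log2 fold change of stiff versus soft in WT (x axis) and Cav1KO cells (y axis) for the 10 genes (squares) and the 67 entries of the actin turnover list (circles; orange where the interaction passed an adjusted p of 0.05). The squares lie near the dashed line of equal effects, with Cfl2 farthest from it, and many circles lie below the line.

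By role, the other actins included Acta2, whose stiffness effects had opposite signs in the genotypes, while a difference for Actg2 was less certain. Of 5 named, Acta2 and Actg2, the smooth muscle actins, were tested. Acta2 was at 965.9 and 1093 CPM on stiff and 685.4 and 796.9 CPM on soft gels in WT cells, and at 417.1 and 398.2 CPM on stiff and 570.6 and 592.8 CPM on soft gels in Cav1KO cells. It rose with stiffness in WT cells (log2 fold change 0.47, adjusted p = 0.00381 by limma) and fell in Cav1KO cells (-0.51, adjusted p = 0.00202 by limma), and the difference passed the interaction test (0.99, adjusted p = 0.00752 by limma), narrowly not so without the first (0.05001) or second Cav1KO soft library (0.0583). Actg2 was at 18.4 to 31.4 CPM in WT and 1.53 to 1.90 CPM in Cav1KO libraries, and its rise of 0.65 in WT cells (adjusted p = 0.00381 by limma) stood against -0.08 in Cav1KO cells (interaction adjusted p = 0.0445 by limma). That interaction call was lost without any of 7 of the 8 libraries (0.0402 to 0.144), after quantile normalization (0.114) and median centring (0.0532), with a pseudocount of 0.5 (0.0538), with edgeR (0.0651) and with DESeq2 (0.150). No 60-nt window of either gene was shared with another gene.

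The 4 tropomyosins, which coat filaments and can shield them from cofilin, were tested in full, and they are named after their values were seen. Tpm1, Tpm3 and Tpm4 rose with stiffness in both genotypes, by 0.35 to 0.67 in WT cells and 0.28 to 0.54 in Cav1KO cells, while Tpm2 was at 0.02 and -0.20, neither past the threshold. All 4 were lower in Cav1KO cells on both substrates, by log2 fold changes of -0.93 (Tpm3) to -0.36 (Tpm4) on stiff and -0.80 (Tpm3) to -0.26 (Tpm1) on soft gels. Of all genes, limma called 22.1% higher with stiffness in WT and 27.9% in Cav1KO cells. It called 26.6% lower in Cav1KO than in WT cells on stiff and 29.9% on soft gels. As each library was left out, the calls of Tpm3 all stood, while those of Tpm1 in Cav1KO cells and on soft gels were lost in 3 of 8 runs each, that of Tpm2 on soft gels in 2 and that of Tpm4 in WT cells in 1. Quantile normalization took the Tpm1 rise in Cav1KO cells to 0.10 (adjusted p = 0.342 by limma). It took the Tpm1 difference on soft gels to -0.11 (adjusted p = 0.278 by limma). That difference was also not called without the trend (adjusted p = 0.0504 by limma). None of the 4 passed the interaction test.

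Of 14 tested cofilin kinases, upstream kinases and cofilin phosphatases, 4 rose and 2 fell with stiffness in WT cells, and 1 rose and 5 fell in Cav1KO cells, 42.9% of the group in each against 48.4% and 56.1% of all genes. Ssh2, a slingshot phosphatase that reactivates cofilin, was at 7.23 and 4.96 CPM on stiff and 1.81 and 3.01 CPM on soft gels in WT cells (log2 fold change 1.06, adjusted p = 0.00651 by limma). It was at 8.18 to 13.1 CPM in Cav1KO libraries, higher than in WT cells on both (0.83, adjusted p = 0.0177 by limma, and 1.62, adjusted p = 5.50e-04 by limma). The rise in WT cells was lost without the first WT soft library (0.0584), and the difference on stiff gels without the second WT stiff (0.110) or first Cav1KO stiff library (0.0808). Its relative Ssh3 was at 11.95 and 12.54 CPM on stiff and 28.9 and 23.1 CPM on soft gels in WT cells, and at 0 to 0.219 CPM in Cav1KO libraries. Ssh3 was therefore close to the limit of counting in Cav1KO cells, where its fitted changes depend on the pseudocount, and edgeR did not call its interaction (adjusted p = 0.494). Rock1, which activates LIM kinases, was at 10.7 and 7.41 CPM on stiff and 4.83 and 6.66 CPM on soft gels in WT cells, and at 6.65 and 3.45 CPM on stiff and 10.2 and 9.36 CPM on soft gels in Cav1KO cells, with an interaction of 1.46 (adjusted p = 0.0481 by limma). The Rock1 call was lost without any of 6 of the 8 libraries (0.00803 to 0.165), with a pseudocount of 0.5 (0.0523), without the trend (0.0674) and with edgeR (0.0550).

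Of 18 tested severing, capping and disassembly genes, 4 rose and 2 fell with stiffness in WT cells (33.3% against 48.4% of all genes) and 7 rose and 8 fell in Cav1KO cells (83.3% against 56.1%). Capg, a capping relative of gelsolin, was at 141.2 and 143.8 CPM on stiff and 297.1 and 258.2 CPM on soft gels in WT cells, and at 99.7 and 105.2 CPM on stiff and 158.6 and 158.9 CPM on soft gels in Cav1KO cells. As with Gsn, its 4 groups did not overlap and stood lowest in Cav1KO stiff cells. Capg fell with stiffness by 0.95 on the log2 scale in WT cells (adjusted p = 7.57e-05 by limma) and by 0.63 in Cav1KO cells (adjusted p = 2.90e-04 by limma). Coro1c, a coronin that works with cofilin at filament branches, rose with stiffness by 0.73 in WT (adjusted p = 2.20e-04 by limma) and 0.31 in Cav1KO cells (adjusted p = 0.0104 by limma), the latter lost after quantile normalization (0.124) and without either Cav1KO soft library (0.0657 and 0.0545). Svil, which encodes the gelsolin relative supervillin, fell with stiffness in Cav1KO cells (-1.39, adjusted p = 0.00228 by limma), from 18.0 and 14.0 CPM on soft to 6.30 and 4.71 CPM on stiff gels. In WT cells the Svil change was -0.17 (adjusted p = 0.624 by limma), and its interaction was not called (adjusted p = 0.0667 by limma). Tmod2, a cap of pointed ends, was at 16.1 to 28.0 CPM in WT and 2.82 to 3.94 CPM in Cav1KO libraries.

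Of 15 tested nucleation and elongation genes outside the Arp2/3 complex, 1 rose and 1 fell with stiffness in WT cells (13.3% against 48.4% of all genes) and 2 rose and 8 fell in Cav1KO cells (66.7% against 56.1%). Spire1, a nucleator that lines up monomers, rose in both, by 0.82 in WT (adjusted p = 0.00124 by limma) and 1.05 in Cav1KO cells (adjusted p = 2.57e-04 by limma). Spire2, its relative, was higher in Cav1KO cells on both substrates, at 11.1 to 19.3 CPM against 3.38 to 4.96 CPM in WT libraries. The formin Fmn1 was lower on stiff than on soft gels in Cav1KO cells, at 6.18 and 4.82 against 16.9 and 15.6 CPM (log2 fold change -1.42, adjusted p = 0.00248 by limma). In WT cells the Fmn1 change was -0.28 (adjusted p = 0.422 by limma), and its interaction was not called (adjusted p = 0.0855 by limma).

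Of 7 tested monomer binders other than Pfn1 and Tmsb4x, 2 rose with stiffness in WT cells and 3 in Cav1KO cells, Pfn2 among them in both, and none fell in either. This was 28.6% against 48.4% of all genes in WT and 42.9% against 56.1% in Cav1KO cells. Twf1 and Twf2, which bind monomers and cap filaments, are counted here and with the capping genes.

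Among the 9 tested entries for actin-sensing transcription and actin oxidation, 3 rose and 2 fell with stiffness in WT cells (55.6% against 48.4% of all genes) and 1 rose and 5 fell in Cav1KO cells (66.7% against 56.1%). Phactr1, which encodes an actin-binding regulator of protein phosphatase 1, was at 0.452 and 0.798 CPM on stiff and 6.65 and 5.05 CPM on soft gels in WT cells, and at 14.9 and 10.9 CPM on stiff and 60.59 and 54.98 CPM on soft gels in Cav1KO cells. It fell with stiffness in both genotypes (log2 fold change -2.07 and -2.10, adjusted p = 1.01e-04 by limma and 5.43e-05) and was higher in Cav1KO cells on both substrates by 3.09 and 3.11 (adjusted p = 3.94e-06 by limma and 3.52e-06). The WT stiff libraries held 9 and 14 reads of Phactr1, so the sizes fitted with that group depend on the pseudocount. Group means were 0.625 CPM on stiff and 5.85 CPM on soft gels in WT cells, and 12.9 and 57.8 CPM in Cav1KO cells. Mkl2, which encodes MRTF-B, was at 15.7 and 12.6 CPM on stiff and 14.7 and 15.7 CPM on soft gels in WT cells, and at 12.9 and 9.65 CPM on stiff and 24.0 and 22.8 CPM on soft gels in Cav1KO cells, with an interaction of 0.90 (adjusted p = 0.0424 by limma). Without any of 6 of the 8 libraries (0.0105 to 0.158) or without the trend (0.0552) the Mkl2 call was lost. Srf, named like the tropomyosins after its values were seen, rose with stiffness in both genotypes (0.46, adjusted p = 0.00107 by limma, and 0.27, adjusted p = 0.0126 by limma) and was lower in Cav1KO cells on both substrates (-0.55 and -0.35). Its rise in Cav1KO cells was lost after quantile normalization (0.0851) and without the second Cav1KO soft library (0.101). Mical2, an actin-oxidizing enzyme outside the naming rule and named after its values were seen, was the other gene of this group with an interaction call (0.75, adjusted p = 0.0471 by limma), lost without any of 7 of the 8 libraries (0.00500 to 0.161), with a pseudocount of 0.5 (0.0503), without the trend (0.0725) and with edgeR (0.0527).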

How the data were processed

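Per the labels, poly(A) RNA (500 ng of total RNA per library) was sequenced as single reads of 60 bases with a kit that does not mark strand. The labels' processing notes name CASAVA 1.8.2, cutadapt, RSEM 1.2.3 and GRCm38. The authors deposited 1 signal per gene and library, TMM-normalized CPM; their filter on low genes and test are not given in the sources used here. The deposited values were whole multiples of 1 read in 100% of cases (tolerance 0.02 read), so reads could be recovered, and a count of 0 allows up to 3 reads. Identifiers were matched to GENCODE M21 (12451 of 12528 genes), the source of coordinates and lengths.

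The fit across genes (limma 3.58.1, R 4.3.3) took log2(CPM + 1) of all 8 libraries, with a mean-variance trend and 4 residual degrees of freedom, for genes that reached 1 CPM in 2 or more libraries. P-values are two-sided and were adjusted by the Benjamini-Hochberg method (threshold 0.05). The design had assumed a CPM unit; the values are treated as a signal because their sums differ between libraries. As alternatives, edgeR 4.0.16 and DESeq2 1.42.0 were run on the recovered reads. Scripts were tested on simulated data. CPM per kb used the longest principal transcript.

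The 10 genes and the lists were chosen with earlier results of these data known. Named by rule were the 10 genes, Cav1, the reference genes, the 5 profiles nearest Actb and Gsn, and per contrast the top 3 called list genes in each direction among those with a mean of 5 CPM or more. Replicate numbers were not taken as pairs, so the main fit used no block.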

Additional observations from a re-analysis of the deposited data

How the results depend on the processing

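All 50 changes of the 10 genes (5 contrasts) were recomputed under up to 20 alternatives, 8 of which left out 1 library each; leaving 1 library in a group, such a fit assumes that it varies like the other groups. Of the 23 called changes, 0 reversed in these runs, 14 kept the call in every run and 9 lost it in at least 1. The calls of Cfl1 and Pfn1 with stiffness, and those of Gsn throughout, of Actg1 and Pfn1 between genotypes and of Tmsb4x between genotypes were among the 14. The number of the 10 genes called ran from 3 to 6 in WT and from 3 to 7 in Cav1KO cells as libraries were left out, and 1 gene had an interaction call after quantile normalization. The turnover list's interaction count of 7 became 12 after quantile normalization, 3 with a pseudocount of 0.5, 14 with one of 5, 3 without the trend, 2 with edgeR, 14 with DESeq2 and 0 to 27 with a library left out.

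Reversals were of changes that had not passed the threshold. Quantile normalization gave, for stiffness, -0.034 for Dstn and -0.0071 for Tmsb4x in WT cells and -0.091 for Actg1 in Cav1KO cells. It gave interactions of 0.028 for Cfl1, 0.033 for Gsn, -0.11 for Tmsb4x and -0.042 for Limk2, and genotype differences on stiff gels of -0.0031 for Dstn and 0.022 for Limk1. Median centring gave 0.019 for Cfl2 with stiffness in WT cells, interactions of -0.027 for Actb, -0.0018 for Tmsb4x and -0.0044 for Limk2, and 0.039 for Cfl2 and 0.027 for Limk1 between genotypes on stiff gels. DESeq2 gave an interaction of 0.00072 for Gsn. With 1 library left out, the WT stiffness effect ran from -0.13 to 0.086 for Cfl2 and -0.083 to 0.12 for Dstn. The interaction ran from -0.10 to 0.14 for Actb, -0.096 to 0.077 for Gsn, -0.053 to 0.14 for Tmsb4x, -0.19 to 0.14 for Limk1 and -0.076 to 0.16 for Limk2. The genotype difference ran on stiff gels from -0.13 to 0.093 for Cfl2, -0.086 to 0.11 for Dstn and -0.20 to 0.14 for Limk1, and on soft gels from -0.020 to 0.16 for Cfl1 and -0.15 to 0.040 for Limk1. The causes were not tested.

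On the recovered reads edgeR called 2715 genes higher and 3219 lower with stiffness in WT cells, 3464 and 3430 in Cav1KO cells, 361 and 541 for the interaction, and 3121 and 3296 on stiff and 2946 and 3693 on soft gels between genotypes. Deviations of samples that share a replicate number had correlations of -0.37 in the WT, 0.06 in the Cav1KO, 0.42 in the stiff and -0.04 in the soft pair of groups. The numbers thus did not act as 1 pairing over all groups. Whether stiff libraries of the same number were handled together was not tested. A fit with the replicate block called Dstn with stiffness in Cav1KO cells (0.22, adjusted p = 0.0302 by limma) and changed no other call of the 10 genes. With the numbers crossed in WT cells, an alternative chosen after the data were seen, 3248 genes were called higher and 3624 lower. Depth limits Limk1 and Limk2 most among the 10 genes, at 281 to 548 reads per library, and Ssh3 in Cav1KO cells, at 0 to 4 reads.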
